A study of Mus musculus with 6 samples.

Results

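The cells described here were skin cells labelled as keratinocytes of the hair follicle (HF) bulge and chosen by 4 genes, Sncg, Gpc6, Tspan2 and Dclk1. Members were selected on the measured counts: a barcode had 500 to 7000 detected genes, at most 10% mitochondrial UMIs, at least 4 UMIs summed over the 4 genes that made at least 6 per 10000 of its UMIs, at most 2 UMIs over the companion layer genes Pinlyp, Wfdc18 and Serpina11, and fewer than 5 over the melanocyte genes Dct, Pmel and Mlana. A UMI is a molecular tag that counts 1 captured transcript. Of 61031 barcodes, 55177 passed the limits on genes and mitochondrial UMIs, and 498 of these were members (0.903%, 95% exact binomial interval 0.825% to 0.985%).

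The libraries came from dorsal skin of wildtype male FVB mice aged p55 to p57, whose hair was removed by shaving and waxing. There was 1 library at 0 h, which served as the reference, and 1 at each of 5 later times, 4 h and 16 h and then 2 d, 4 d and 6 d. Values given in time order run through these 6 libraries from 0 h. Cells of 2 mice were mixed in equal numbers into each library, so the mice cannot be told apart and no test between a pair of time points was possible. The members held 455086, 174971, 1031934, 242533, 354308 and 389990 UMIs in time order. Levels are given as CPM, UMIs scaled to a total of 1000000 over the members of a library, and all intervals cover counting error only. A gene with 0 UMIs could still have been at up to 6.59, 17.1, 2.91, 12.4, 8.47 and 7.69 CPM in time order, the level of 3 UMIs.

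The bulge is the part of the HF below the sebaceous gland where HF stem cells (HFSCs) reside during telogen, the resting phase. Its outer layer is known for Cd34, Krt15, Krt24 and the transcription factors Sox9, Lhx2 and Nfatc1, and its inner layer for Krt6a, Krt75 and the signals Fgf18 and Bmp6, which help to hold stem cells in rest. Depilation removes the hair shaft, injures the inner layer and starts anagen, the growth phase, in which the bulge stays behind while the hair germ below it builds the lower follicle. Sncg encodes gamma-synuclein, a small protein abundant in sensory neurons. Gpc6 encodes a glypican, a cell surface heparan sulfate proteoglycan. Tspan2 encodes a tetraspanin and Dclk1 a kinase that binds microtubules.

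The promoters of Sncg and Fgf18, the rule gene and the label marker with the largest fold difference between 0 h and 6 d, and of Krt24 and Cck, which gave the smallest p-values over the time course outside genes carried by single cells, are shown from RefSeq (build GRCm38.p6) as 300 bases around the start site, 5′ to 3′ on the strand of the gene. All 4 genes lie on the minus strand. The Sncg window is chr14:34374620-34374919, that of Fgf18 chr11:33147351-33147650, that of Krt24 chr11:99285213-99285512 and that of Cck chr9:121495645-121495944. Capitals mark each match on either strand to TAATT (the core read by LIM homeodomain factors such as Lhx2), ACAAT (Sox factors), TGANTCA (AP-1) or GGGCGG (GC box).
Sncg: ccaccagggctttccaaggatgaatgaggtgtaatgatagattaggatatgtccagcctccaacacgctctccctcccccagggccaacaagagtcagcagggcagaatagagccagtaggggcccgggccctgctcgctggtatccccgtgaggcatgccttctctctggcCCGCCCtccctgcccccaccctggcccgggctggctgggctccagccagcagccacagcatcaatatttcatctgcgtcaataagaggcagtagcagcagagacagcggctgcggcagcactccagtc
Fgf18: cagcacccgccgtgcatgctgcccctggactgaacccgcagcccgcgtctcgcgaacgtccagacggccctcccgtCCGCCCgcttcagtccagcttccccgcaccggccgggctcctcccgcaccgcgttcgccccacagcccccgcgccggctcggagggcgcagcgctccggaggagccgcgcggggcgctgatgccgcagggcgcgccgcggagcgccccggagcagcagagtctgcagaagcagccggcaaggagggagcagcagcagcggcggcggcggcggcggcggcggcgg
Krt24: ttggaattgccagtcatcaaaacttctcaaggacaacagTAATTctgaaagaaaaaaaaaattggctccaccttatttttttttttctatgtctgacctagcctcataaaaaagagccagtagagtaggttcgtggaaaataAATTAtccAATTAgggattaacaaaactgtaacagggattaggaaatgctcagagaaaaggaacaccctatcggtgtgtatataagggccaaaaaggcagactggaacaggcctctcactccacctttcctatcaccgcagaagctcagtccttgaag
Cck: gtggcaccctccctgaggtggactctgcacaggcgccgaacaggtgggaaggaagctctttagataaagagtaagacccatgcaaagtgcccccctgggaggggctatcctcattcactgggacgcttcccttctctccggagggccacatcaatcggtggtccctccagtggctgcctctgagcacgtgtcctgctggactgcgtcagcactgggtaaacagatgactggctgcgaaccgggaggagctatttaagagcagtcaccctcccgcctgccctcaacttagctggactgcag
Krt24 held 3 matches to TAATT, Sncg and Fgf18 held 1 GC box each, and Cck held no match to these letters. Among 32851 mouse promoters of this length, 27.0% held TAATT, 31.0% ACAAT, 7.81% TGANTCA and 35.7% GGGCGG. The GC content was 61.3% for Sncg, 78.7% for Fgf18, 39.7% for Krt24 and 59.3% for Cck, beside a median of 52.7% over all promoters.

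The members numbered 88, 37, 172, 50, 77 and 74 in time order. As a share of the kept barcodes they made up 1.27% (1.02% to 1.56%) at 0 h and 0.483% (0.340% to 0.665%) at 4 h. At 16 h the share was 1.97% (1.69% to 2.28%). The later libraries had 0.524% (0.390% to 0.691%) on day 2, 0.621% (0.490% to 0.775%) on day 4 and 0.746% (0.586% to 0.936%) on day 6. The share was highest at 16 h, and its intervals at 0 h and 16 h lay above those at the other time points. Without members of other cell types the shares were 1.24%, 0.339%, 1.83%, 0.399%, 0.508% and 0.625% in time order. The log2 ratio of the share at 4 d to that at 0 h was -1.03 (-1.50 to -0.58), but it was -0.0847 when 3 UMIs and 4 per 10000 admitted a cell and -2.28 at 6 UMIs and 10 per 10000, so its size rested on the threshold. A member had a median of 4968, 4742, 5745, 4055, 4019 and 4634 UMIs in time order, where all kept barcodes had 8624, 8547, 10797, 7662, 6309 and 7164. With every kept cell thinned to 4000 UMIs the same limits admitted 0.754%, 0.213%, 1.42%, 0.278%, 0.231% and 0.429% in time order, which kept 16 h highest and 0 h next.

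The threshold fell inside a continuum. Exactly 4 UMIs of the 4 genes were seen in 174 members, while 547 kept barcodes had 3 UMIs and another 183 had 4 or more that made under 6 per 10000. The limit on companion layer genes removed 25 barcodes, 20 of them at 6 d, and the limit on melanocyte genes removed 1. Predicted doublets made up 2.41% of the members and 9.43% of the kept barcodes. Any 2 libraries shared 7 to 47 barcode sequences, and none of these was a member.

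The label was checked against marker genes, and most members carried bulge keratins, though not all. Of the 498, 18 were T cells by Cd3d, Cd3e, Cd3g and Trdc with little keratin, all admitted through Tspan2, and 10 were Langerhans cells, also through Tspan2. Another 3, all at 4 d, had endothelial genes and were admitted through Sncg, 24 carried Cst6, Defb6 and Krt79 of the upper follicle, mostly through Dclk1, and 8 were low in Krt5, Krt14 and Krt15 without markers of another type. The other 435 members are called the remaining members below, and numbered 86, 26, 160, 38, 63 and 62 in time order. The share left out was 2.27%, 29.7%, 6.98%, 24%, 18.2% and 16.2%, so cells of other types were most frequent at 4 h and 2 d. These limits were set after the data were seen. They used UMIs of Cst6, Defb6 and Krt79, of Cd207, Cd74, H2-Aa and H2-Ab1, of the T cell and endothelial genes and of the keratins named. The levels of those genes in the remaining members follow in part from that choice and test nothing. Values without those cells are given beside many of the results.

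**Figure D1:**
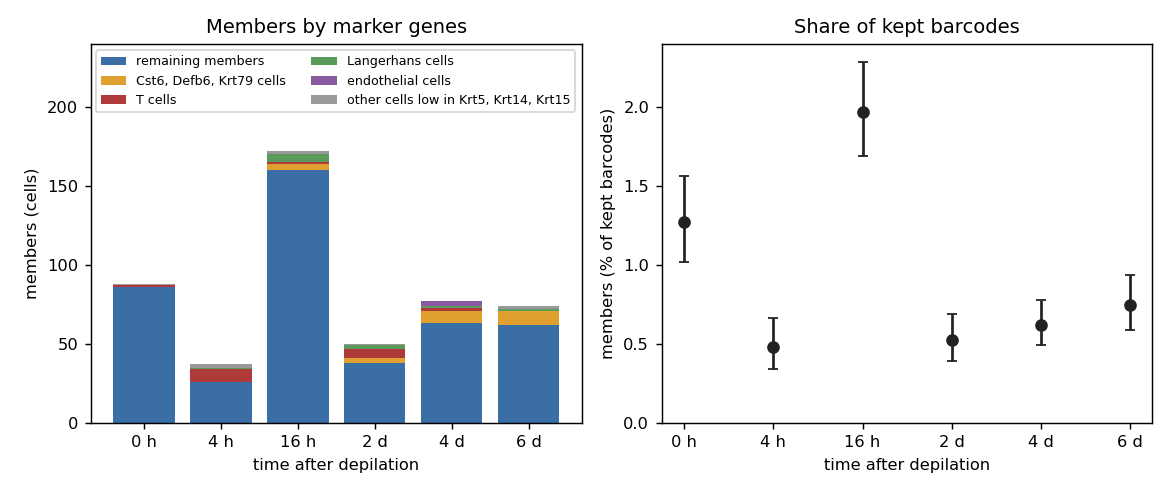
Left, members per library (cells, y axis) by time after depilation (x axis), split by the markers they carried. Right, members as a percentage of kept barcodes with exact 95% binomial intervals; 16 h was highest at 1.97% and 4 h lowest at 0.483%.

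The summed markers of other cell types mostly moved with those counts, but the remaining members at 4 d were not free of them. At 4 d, 3 members reached the limit for T cell genes, and 2 were left out as T cells because they also had little keratin. The 9 T cell markers together came to 193, 2435, 139, 1967, 768 and 18.0 CPM in the members in time order, led by Cd3g, and to 15.6, 14.6, 25.9, 41.5, 360 and 15.8 CPM in the remaining members. The 6 Langerhans cell markers came to 1198, 3921, 3244, 5137, 1671 and 1621 CPM, of which Epcam, also an epithelial gene, was the most abundant, and to between 712 and 1317 CPM in the remaining members. The fibroblast list was carried by Vim, with Lum, Dpt and Pdgfra at 0 in every library. It came to 147 CPM in the remaining members at 4 d and to at most 26.7 CPM in those of the other libraries. Endothelial markers reached 121 CPM at 4 d and were at 0 there in the remaining members. Glial markers of Schwann cells came to at most 34.3 CPM with S100b and Ngfr at 0, smooth muscle markers to at most 5.72 CPM with Des and Myh11 at 0, and Merkel cell markers to at most 34.9 CPM with Atoh1 and Isl1 at 0.

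The 4 genes that chose the members did not contribute evenly over time. Sncg was at 774, 600.1, 725, 231, 271 and 35.9 CPM in time order. It made up 63.5%, 54.7%, 59.4%, 19.4%, 24.7% and 3.51% of the UMIs of the 4 genes. Members with a Sncg UMI were 84 of 88, 26 of 37, 158 of 172, 28 of 50, 34 of 77 and 9 of 74. The early members were thus mostly Sncg cells, and the members of 6 d mostly were not.

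Gpc6 was at 174, 68.6, 146, 297, 237 and 336 CPM in time order. Dclk1 was at 121, 160, 249, 329.9, 339 and 423 CPM in time order. Both stood lower in the members of 0 h than in those of 6 d. Tspan2 was at 149, 269, 99.8, 334, 251 and 228 CPM in time order, but at 143, 51.0, 73.7, 244, 242 and 247 CPM in the remaining members, so that its 4 h level rested on the members left out, 8 of 11 of them T cells. Because the rule used the sum of these genes, a member low in one had to be high in another, and no test was made. Over all kept barcodes, which the rule did not select, Sncg was at 10.2, 5.55, 13.5, 2.50, 3.75 and 1.18 CPM in time order, and the members held 48.0%, 26.2%, 51.0%, 24.2%, 27.6% and 13.6% of those UMIs. Gpc6 was at 3.20 CPM at 0 h and 12.5 at 6 d over all kept barcodes, Dclk1 at 1.52 and 8.85, and Tspan2 at 3.09 and 7.13.

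Few members carried all 4 genes. Of the 498, 121 had UMIs of 1 gene, 178 of 2, 158 of 3 and 41 of 4. Those with a single gene comprised 71 with Sncg, 27 with Tspan2, 19 with Dclk1 and 4 with Gpc6, and the Tspan2 cases included T cells and Langerhans cells.

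**Figure D2:**
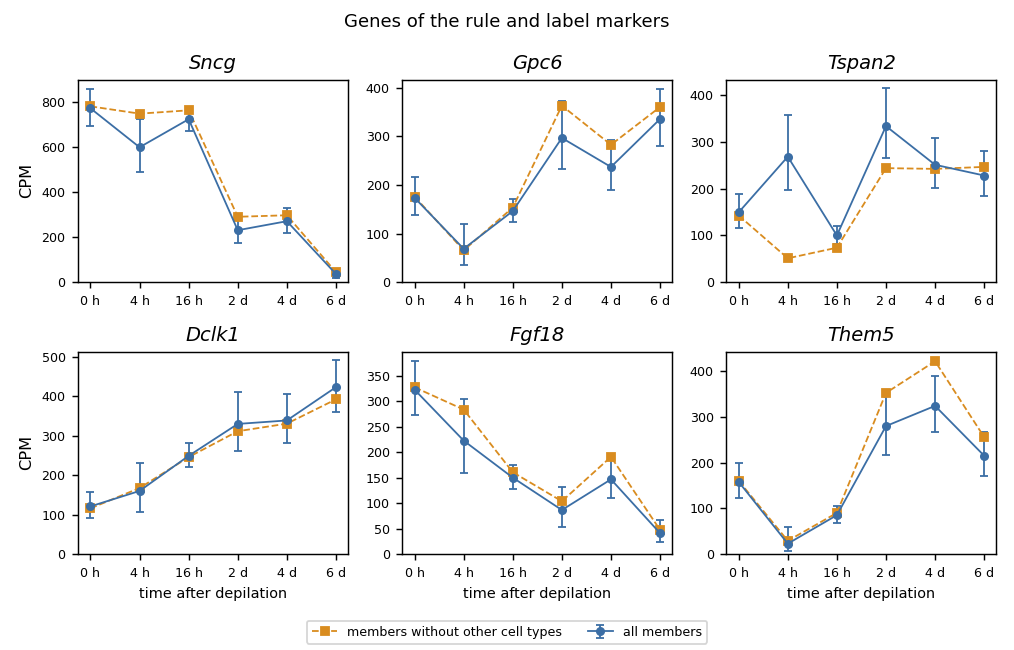
Level (CPM, y axis) of the 4 genes that chose the members and of the label markers Fgf18 and Them5 by time after depilation (x axis), with exact 95% Poisson intervals. Circles are all members and squares the remaining members; Sncg and Fgf18 were high early, and Gpc6 and Dclk1 were highest at 6 d in all members.

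Fgf18 and Them5, the label markers that the rule did not use, differed in their course. Fgf18, a fibroblast growth factor known for holding the follicle in telogen, was at 323, 223, 150.2, 86.6, 147 and 41.0 CPM in time order. The remaining members had 328, 284, 161, 104, 191 and 47.4 CPM, Krt15 cells with Cd34 or Krt24 outside the members 55.5, 198, 30.8, 26.5, 25.7 and 5.44 CPM, and all other kept barcodes 5.15, 3.27, 1.93, 1.24, 1.47 and 1.24 CPM. The log2 ratio of 6 d to 0 h was -2.98 (-3.82 to -2.23), or -1.50 with a threshold of 6 UMIs and 10 per 10000, and Fgf18 fell over the time course (adjusted p = 0.0354, linear trend -2.33 on the log2 scale). That call was lost without members of other cell types (adjusted p = 0.153) and on the log2(hours + 1) scale (adjusted p = 0.0707), while with both changes together Fgf18 fell (adjusted p = 0.032).

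After thinning to 2000 UMIs, a Fgf18 UMI was found in 39.8%, 18.9%, 25%, 18%, 16.2% and 8.11% of members. Unthinned, the shares were 54.5%, 35.1%, 40.1%, 26%, 20.8% and 12.2%. In the remaining members the thinned shares were 40.7%, 26.9%, 26.9%, 21.1%, 20% and 8.06%, so that 4 h was no longer below 16 h, and the unthinned shares 55.8%, 50%, 43.1%, 31.6%, 25.4% and 12.9%. T cells of the same libraries, which should lack the gene, had Fgf18 in 0% to 0.505% of cells after the same thinning, with a median of 2367 UMIs per cell over the 6 libraries beside 5045 in the members.

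Them5, a mitochondrial acyl-CoA thioesterase, was at 158, 22.9, 85.3, 280.4, 325 and 215 CPM in time order. It was low at 4 h and highest at 4 d, and passed the test on the log2(hours + 1) scale (adjusted p = 0.00681) but not on the scale of hours (adjusted p = 1). In other kept barcodes Them5 was at 86.0, 36.6, 64.1, 73.9, 26.3 and 92.1 CPM, so at 4 h it did not stand above them.

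At 4 d Fgf18 lay mostly in members with Sncg, which held 51 of its 52 UMIs in the remaining members. Among the 63 remaining members at 4 d, the 31 with a Sncg UMI had Fgf18 at 439 CPM, Cd34 at 189, Them5 at 637 and Krt15 at 23292, and the 32 without had 6.41, 19.2, 263 and 12848. At 6 d, 9 of 62 had Sncg, with Fgf18 at 149 CPM and Krt15 at 21720, beside 29.7 and 11159 in the other 53. At 0 h only 3 of 86 lacked Sncg, too few for such a split. Sox9 ran the other way at both times, with 723 CPM in members with Sncg and 897 without at 4 d, and 956 and 1617 at 6 d. These are descriptions of cells within 1 library each.

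Next, genes that stood highest in the members relative to all other kept barcodes were listed, by the lowest of the 6 ratios and at least 50 CPM in each library. There were 15 such genes. Krt15, the keratin of the bulge, was at 21490.4, 10625, 16181, 11916, 13782 and 10777 CPM in time order, where other barcodes had 4943, 781, 2240, 1659, 2817 and 2470.2 CPM. Sox9, a transcription factor that HFSCs require, was at 802, 423, 610.5, 1138, 855 and 1385 CPM in time order, and Foxc1, known for keeping HFSCs at rest, at 123, 97.2, 110.5, 161, 203 and 215 CPM. Their presence at every time point was fixed by the limit of 50 CPM in each library.

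Kcnk2, a potassium channel opened by membrane stretch, was at 171, 172, 83.3, 74.2, 87.5 and 100 CPM, at least 7.88 times its level in other barcodes in each library. Scx, a transcription factor best known from tendon, was at 79.1, 137, 77.5, 70.1, 59.3 and 74.4 CPM, and Filip1l at 257, 269, 236, 359, 296 and 336 CPM. The Wnt receptors Fzd1 and Fzd7 were at 143, 68.6, 84.3, 94.8, 129.8 and 100 CPM and at 65.9, 57.1, 99.8, 153, 149.6 and 113 CPM. Myof (myoferlin), Actn1 (alpha-actinin), Pdzrn3 (a ubiquitin ligase), Dapk2 (a kinase), Fam167a and Sh3kbp1 (an adaptor protein) were also on the list. Sh3kbp1 had 69 CPM at 4 h in all members, but a level under that of 3 UMIs in the remaining members.

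These leading genes were not restricted to the members. In the Krt15 cells with Cd34 or Krt24, Kcnk2 was at 158, 263, 118, 79.5, 95.2 and 118 CPM and Scx at 81.5, 191, 95.1, 60.1, 119.9 and 101 CPM. Kcnk2 was lower there than in the members only at 0 h, and Scx only at 2 d. At 4 d the members had Scx at 59.3 CPM. Myof had 204, 292, 382, 289, 378 and 359 CPM in the members and 102, 219, 207, 150.2, 151 and 171 CPM in those cells, and Fzd1 143, 68.6, 84.3, 94.8, 129.8 and 100 CPM and 55.5, 29.1, 58.2, 72.4, 63.1 and 63.9 CPM. All of this is description, since the rule had chosen the cells that were compared.

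To find genes that changed over the time course, a smooth curve of hours was fitted to the 6 sums. With edgeR's quasi-likelihood test and Benjamini-Hochberg adjustment, 60 of 5562 genes tested passed 0.05 (1.08%), 31 rising and 29 falling by their linear trend, and 312 had an unadjusted p under 0.05. On the log2(hours + 1) scale, which gives the first hours more weight, 129 passed (2.32%), and 51 genes passed on both. In the remaining members 15 of 4541 passed on hours (0.330%) and 287 on the log2(hours + 1) scale (6.32%). The same 11 genes passed in all 4 fits, among them Bgn, Cck, Ccn2, Cxcl14, Gadd45g, Hspa1b, Krt24, Lap3, Plin2 and Sparc. Since the last of these fits made the most calls, its calls for the gene lists are given beside those of all members, where the remaining members on the log2 scale means that fit. The fit was not planned and was not repeated with single libraries left out, so a gene that passed in it alone is a weaker call. The calls in each list are to be read beside the share of all genes called in the same fit. Each fit has 2 residual degrees of freedom and no replicate at any time point, so its p-values measure scatter around the curve between 6 libraries.

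Several bulge and secreted genes fell. Cck, the peptide hormone cholecystokinin, was at 213, 160, 50.4, 12.4, 2.82 and 0 CPM in time order, and 0 UMIs were counted at 6 d, at least 27.7-fold lower than at 0 h against the level of 3 UMIs. It fell on both time scales (adjusted p = 1.94e-06 on hours and 0.000144 on log2(hours + 1)), and also in the remaining members (adjusted p = 0.00162). Krt24, a keratin of quiescent outer bulge cells, fell from 409 CPM (95% interval 352 to 472) at 0 h to 7.69 CPM (95% interval 1.59 to 22.5) at 6 d (adjusted p = 7.27e-06), with 263, 118, 12.4 and 28.2 CPM between. Both genes were already lower at 16 h than at 0 h, and each had 3 UMIs left at 2 d.

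Sparc, a matricellular protein, fell as well (adjusted p = 0.000578), with 349, 229, 69.8, 20.6, 84.7 and 43.6 CPM in time order. Cxcl14, a chemokine and the most abundant secreted product listed, fell from 2971 CPM (95% interval 2815 to 3134) at 0 h to 382 CPM (95% interval 323 to 449) at 6 d (adjusted p = 0.00243), with 2098, 1181, 346 and 373 CPM between. Ccn2, a target of mechanical and TGF-beta signals, was at 639, 109, 95, 16.5, 31.1 and 30.8 CPM in time order and fell (adjusted p = 0.00475), most of it within the first 4 h. Cd34, the surface marker of outer bulge HFSCs, was at 602, 206, 285, 94.8, 79.0 and 43.6 CPM in time order and fell (adjusted p = 0.00553, 0.0507 without members of other cell types). Among the remaining members thinned to 2000 UMIs, a Cd34 UMI was found in 53 of 86, 10 of 26, 69 of 160, 7 of 38, 10 of 60 and 3 of 62. Unthinned, it was found in 74 of 86, 17 of 26, 117 of 160, 12 of 38, 14 of 63 and 15 of 62, and T cells had it in at most 0.652% after thinning.

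These falls went with the shift in the rule genes, since members with a Sncg UMI were 84 of 88 at 0 h, 28 of 50 at 2 d, 34 of 77 at 4 d and 9 of 74 at 6 d, and the part of that shift in them was not tested. Among the 63 remaining members at 4 d, all 10 Krt24 UMIs were in the 31 with Sncg, at 86.1 CPM, and Cxcl14 was at 801 CPM with Sncg and 231 without. At 6 d the order was reversed, with Cxcl14 at 319 CPM with Sncg and 468 without, and Krt24 at 0 and 3 UMIs. At 2 d Cxcl14 was at 450 CPM with Sncg and 361 without, and Krt24 had 2 UMIs and 1, at 14.3 and 19 CPM.

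Bgn, the matrix proteoglycan biglycan, was at 0, 0, 0.969, 28.9, 87.5 and 66.7 CPM in time order and rose (adjusted p = 5.13e-05, 0.0121 without members of other cell types). It had 0 UMIs at 0 h and at 4 h and 1 at 16 h, beside a higher level in each of the 3 later sums. Gadd45g, a stress and growth arrest gene, was at 90.1, 45.7, 34.9, 107, 294 and 777 CPM in time order and rose (adjusted p = 0.00016). Plin2, a coat protein of lipid droplets, was at 11.0, 5.71, 53.3, 136, 158 and 133 CPM in time order and rose (adjusted p = 0.00376). The aminopeptidase gene Lap3 rose from 74.7 CPM at 0 h to 369 at 6 d with 649 at 4 d (adjusted p = 0.00475).

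**Figure D3:**
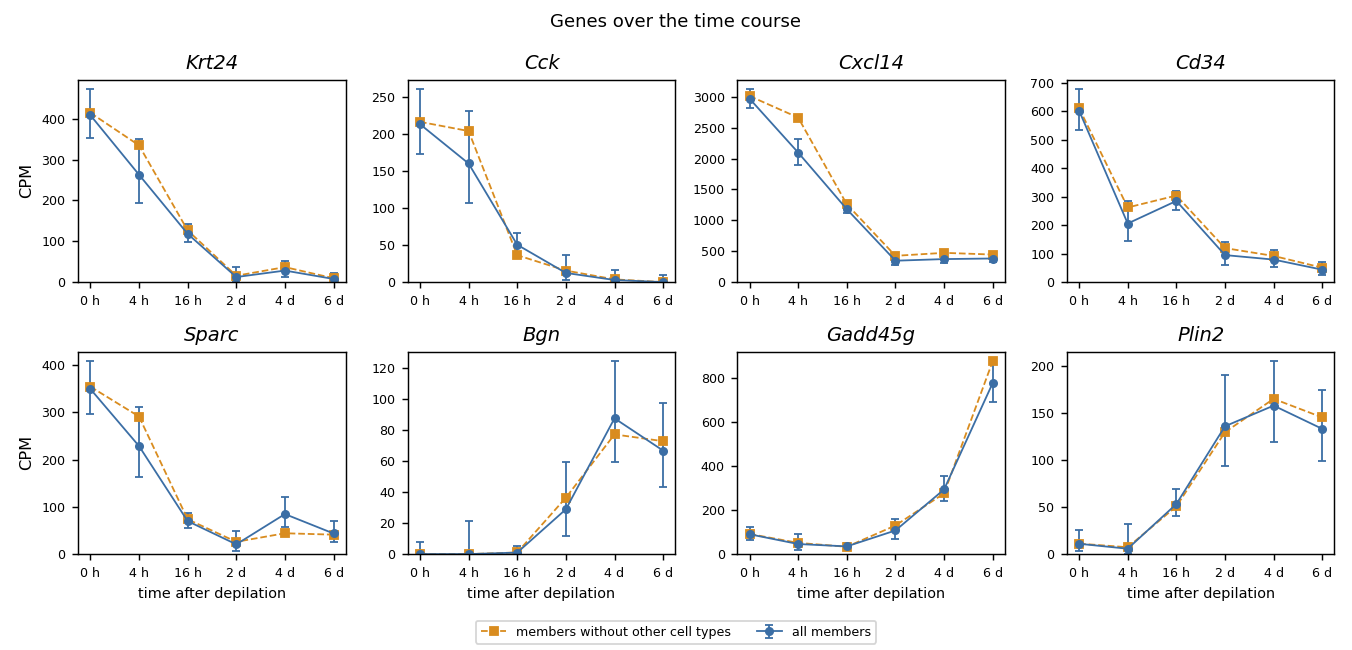
Level (CPM, y axis) of 8 genes that passed the time course test, by time after depilation (x axis), in all members (circles, exact 95% Poisson intervals) and in the remaining members (squares). Krt24, Cck, Cxcl14, Cd34 and Sparc fell and Bgn, Gadd45g and Plin2 rose, with 0 h and 6 d in the same order in both sets.

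For other calls, 1 cell held a large share of the UMIs or the call was lost without members of other cell types. Defb6, a defensin of the upper follicle, had the smallest p (adjusted p = 8.09e-07) with 2.20, 5.71, 183, 998, 706 and 628 CPM in time order, but 90.9% of its UMIs in its highest library sat in 1 cell and the remaining members had 2.23, 7.28, 28.0, 36.3, 62.4 and 66.4 CPM (adjusted p = 0.264). Single cells also held 70.1% of the UMIs of Tnfaip2 (adjusted p = 1.94e-06), 87.9% of those of Cxcl2 (adjusted p = 1.72e-05) and 75.6% of those of Igfbp5 (adjusted p = 0.000201) in their highest library. For the kallikrein proteases Klk10 (adjusted p = 7.12e-05) and Klk7 (adjusted p = 7.32e-05) the figures were 45.6% and 47.0%. Krt79 and Cst6 of the upper follicle passed as well (adjusted p = 0.00431 and 0.0043), and 1 cell held 75.2% of the Cst6 UMIs and 15% of the Krt79 UMIs in their highest library. Of T cells thinned to 2000 UMIs, 18.1% had Krt79 and 35.0% Cst6 at 4 d, beside 23.3% and 25% of the remaining members. Krt79 was at 4.39, 0, 167, 614, 2224 and 862 CPM in all members and 4.46, 0, 32.2, 31.1, 463 and 50.6 CPM in the remaining members. Cst6 was at 185, 74.3, 1335, 5117, 6649.6 and 3631 CPM in all members and 187, 87.3, 164, 239, 147 and 231 CPM in the remaining members. With Defb6 they were the 3 of 7 upper follicle markers that passed on hours, all rising, beside 1.08% of all genes. Upper follicle members were left out by the sum of these 3 genes, so their lower levels and lost calls without those members followed in part from that choice. They are no test of where the calls came from. None of the 3 passed on hours in the remaining members (adjusted p = 0.0619 for Krt79 and 1 for Cst6), beside 0.330%. There, on the log2(hours + 1) scale, Defb6 rose (adjusted p = 0.00538) and Fst, also on that list, fell (adjusted p = 5e-06), beside 6.32%.

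Outer and inner bulge genes were then read as groups. Of 12 outer bulge markers tested, 3 fell on hours (Cd34, Krt24 and Cxcl14) and none rose, beside 1.08% of all genes called, and on the log2(hours + 1) scale 5 fell and 1 rose, beside 2.32%. In the remaining members 2 passed on hours and 6 on the log2(hours + 1) scale, beside 0.330% and 6.32% of all genes. Postn (periostin) was at 815, 497, 339, 276, 138 and 187 CPM and fell on that scale (adjusted p = 0.0117), as did Col17a1, a hemidesmosome collagen, at 844, 1200.2, 909.9, 367, 384 and 356 CPM (adjusted p = 0.0359). Sfrp1, a secreted Wnt antagonist, was at 209, 85.7, 131, 181, 259.7 and 500 CPM and rose on it (adjusted p = 0.0439). Krt15, Sox9, Lhx2, Nfatc1, Lgr5 and Itga6 did not pass on either scale. Lhx2 was at 437, 97.2, 307, 338, 294 and 305 CPM and Lgr5, a marker of lower bulge and hair germ, at 198, 97.2, 91.1, 94.8, 56.5 and 82.0 CPM. Of the members, 59.1%, 43.2%, 46.5%, 26%, 22.1% and 35.1% in time order also met the threshold for outer bulge comparison cells, 4 UMIs over Cd34, Krt24, Postn and Sfrp1.

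Of 6 inner bulge markers tested, Krt75 rose and Fgf18 fell on hours, beside 1.08% of all genes called. Krt75 was at 119, 62.9, 29.1, 28.9, 158 and 182 CPM in time order (adjusted p = 0.0234, 0.198 without members of other cell types), and the linear trend was near 0 (-0.06 on the log2 scale, against 1.52 on hours in all members) in the remaining members on the log2(hours + 1) scale, so its direction depended on the fit, while the Krt15 cells with Cd34 or Krt24 had 5.46, 6.84, 3.42, 8.83, 4.28 and 14.3 CPM. Krt6a, a keratin of the inner bulge that also marks stressed keratinocytes, was at 419.7, 2915, 1629, 499, 243 and 726 CPM in time order, and passed on the log2(hours + 1) scale (adjusted p = 0.00959), with its peak at 4 h. Krt6a, Krt75, Bmp6 and Fgf18 passed in the remaining members on the log2 scale (adjusted p = 1.44e-06, 0.00126, 0.0211 and 0.032), beside 6.32% of all genes. Krt16 was at 63.7, 1600.3, 778, 90.7, 11.3 and 84.6 CPM (adjusted p = 0.0469 on that scale) and Krt17 at 743, 5458, 2549, 874, 5213 and 5156 CPM (adjusted p = 0.105). Bmp6 was at 33.0, 28.6, 16.5, 82.5, 59.3 and 38.5 CPM and did not pass in all members on either scale. Over the 23 keratins listed, 13 were tested, of which Krt75 and Krt79 rose and Krt24 fell on hours, beside 1.08% of all genes called. In the remaining members 1 of the 13, Krt24, passed on hours, beside 0.330%. The 6 companion layer markers shared Krt75, Krt6a and Krt17 with this list, and 1 of the 3 tested rose on hours, beside 1.08% of all genes.

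Of 14 transcription factors of stem cells tested, 0 passed on hours by edgeR (3 at an unadjusted p under 0.05 and 1 by DESeq2), and Sox4 rose on the log2(hours + 1) scale, at 59.3, 5.71, 7.75, 66.0, 291 and 187 CPM (adjusted p = 0.000592, 0.0619 on hours). Barx2 also rose in the remaining members on the log2 scale (adjusted p = 0.00464). The shares of all genes called in these 2 fits were 2.32% and 6.32%. Nfib was at 960.3, 457, 579.5, 602, 663 and 913 CPM, and Zbtb16, which was too low to test, had 47 UMIs at 0 h and 1 at 2 d. At 4 h, 5 of the 12 factors that could be compared were 2-fold or more lower than at 0 h, Lhx2 among them, beside 9.68% of all genes, and with TMM library sizes 7 were, beside 15.6%.

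Of 12 secreted bulge genes tested, 5 fell on hours (Fgf18, Dkk3, Igfbp3, Cxcl14 and Sparc) and 1 rose, beside 1.08% of all genes called, with a median linear trend of -1.45 beside -0.04 over all genes. Dkk3, a Dickkopf family protein, was at 178, 166, 62.0, 16.5, 42.3 and 69.2 CPM (adjusted p = 0.0138, 0.0986 without members of other cell types) and Igfbp3, which binds insulin-like growth factors, at 145, 166, 58.1, 20.6, 36.7 and 5.13 CPM (adjusted p = 0.00211, 0.368). The gene that rose was Igfbp5, carried by 1 cell. Fst (follistatin), at 360.4, 1783, 250, 218, 136 and 269 CPM, did not pass on either scale but fell in the remaining members on the log2 scale (adjusted p = 5e-06). In that fit 7 of the list fell and Bmp6 rose, beside 6.32% of all genes called. On hours 2 of the list passed in the remaining members, beside 0.330%. Wif1 reached 149 CPM at 6 d in all members but 0 in the remaining members.

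Signalling pathways were described by their members. Among 16 BMP pathway genes tested, 0 passed on hours by edgeR (6 at an unadjusted p under 0.05 and 0 by DESeq2), while the BMP target genes Id1 and Id3 fell on the log2(hours + 1) scale, beside 2.32% of all genes called. Id1 was at 1349, 663, 555, 416, 327 and 459 CPM (adjusted p = 0.0349) and Id3 at 1595, 1212, 688, 433, 618 and 723 CPM (adjusted p = 0.0355), and both were lower at every later time point than at 0 h. Grem1, a secreted BMP antagonist, was at 182, 68.6, 105, 4.12, 31.1 and 30.8 CPM and did not pass in all members. More BMP genes passed in the remaining members on the log2 scale, where 6 fell, among them Grem1 (adjusted p = 0.0312), Smad7 (adjusted p = 0.0299) and Bmp2 (adjusted p = 0.0168), and Bmp6 rose, beside 6.32% of all genes called there. Of 14 Wnt pathway genes, Dkk3 fell on hours, beside 1.08% of all genes called. Ctnnb1 (beta-catenin) was at 308, 206, 409, 474, 516 and 454 CPM and Sostdc1, an antagonist of Wnt and BMP, at 290.1, 103, 244, 272, 570.1 and 420.5 CPM, and neither passed in all members, while Sostdc1, Lgr4 and Sfrp1 rose in the remaining members on the log2 scale (adjusted p = 0.0175, 0.0104 and 0.00117) and Dkk3 fell (adjusted p = 0.000475), beside 6.32% of all genes. Among 6 FGF pathway genes Fgf18 was the 1 call, on hours and in the remaining members on the log2 scale, beside 1.08% and 6.32% of all genes. Fgf5, and Shh of the hedgehog list, had no UMI in the members.

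For 10 TGF-beta genes 0 passed on either scale in all members by edgeR (3 at an unadjusted p under 0.05 and 0 by DESeq2), as for 4 hedgehog genes (1 at an unadjusted p under 0.05 and 0 by DESeq2) and 6 Notch genes (0 at an unadjusted p under 0.05 and 0 by DESeq2). Of these, Ltbp2 fell (adjusted p = 0.0327) and Inhbb rose (adjusted p = 0.0134) in the remaining members on the log2 scale. Tgfbi was at 314, 474, 248, 169, 184 and 120.5 CPM, Gas1, which binds hedgehog, at 288, 183, 222, 284, 265 and 274 CPM, and the Notch target Hes1 at 609, 166, 523, 396, 514 and 905 CPM. Of 5 ErbB receptors and ligands 0 passed on either scale in all members by edgeR (1 at an unadjusted p under 0.05 and 0 by DESeq2), with Egfr at 92.3, 80.0, 108, 66.0, 113 and 84.6 CPM and the ligand Hbegf, which fell in the remaining members on the log2 scale (adjusted p = 0.0122), at 244, 154, 65.9, 74.2, 19.8 and 59.0 CPM. Of 8 genes of nerve and muscle contact 0 passed on hours by edgeR (3 at an unadjusted p under 0.05 and 0 by DESeq2), and Postn fell on the log2(hours + 1) scale. Npnt, the nephronectin that anchors the arrector pili muscle, passed on that scale with a rising linear trend (adjusted p = 0.0499). It was at 72.5, 17.1, 15.5, 45.4, 59.3 and 79.5 CPM, below its 0 h level until 6 d. Egfl6, Bdnf and Sema3e also fell in the remaining members on the log2 scale (adjusted p = 0.0166, 0.0198 and 0.00948). For these lists, 2.32% of all genes passed on the log2(hours + 1) scale in all members. In the remaining members on the log2 scale 6.32% did.

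Immediate early genes respond within minutes to injury and also to tissue digestion, and Fos and Fosb were highest at 0 h. Of 20 tested, Fosb fell and Egr3 rose on hours, beside 1.08% of all genes called. On the log2(hours + 1) scale 4 fell (Fos, Fosb, Klf4 and Dusp1) and 1 rose, beside 2.32%. In the remaining members on the log2 scale 8 fell and 1 rose, beside 6.32%. Fos was at 8491, 4344, 3048, 2177, 2884 and 2003 CPM in time order (adjusted p = 0.00959 on the log2(hours + 1) scale in all members). Fosb was at 2949, 1600.3, 802, 627, 449 and 310.3 CPM (adjusted p = 0.00802, 0.0503 without members of other cell types), and Egr3, lower in level, at 28.6, 28.6, 43.6, 173, 138 and 310.3 CPM (adjusted p = 0.00475, 0.0577 without members of other cell types). Against 0 h, 4 of 17, 5 of 19, 11 of 18, 13 of 18 and 10 of 18 of these genes were 2-fold or more lower at the 5 later times in order, beside 9.68%, 5.0%, 9.62%, 8.73% and 6.77% of all genes. With TMM sizes they were 9, 8, 14, 13 and 13, beside 15.6%, 8.1%, 11.4%, 14.1% and 9.84%. The part of the cell isolation in these levels was not tested.

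Of 12 heat shock genes, Hspa1b rose on hours, beside 1.08% of all genes called. It was at 255, 80.0, 179, 202, 505 and 1767 CPM in time order (adjusted p = 0.00449), and Hspa1a at 435, 34.3, 151, 119.6, 711 and 1613 CPM did not pass (adjusted p = 1). Hspa1a, Hspa1b and Dnajb1 rose in the remaining members on the log2 scale (adjusted p = 0.00261, 2.85e-07 and 0.0197), and Hspb1 and Hspd1 passed with a falling trend (adjusted p = 1.07e-05 and 0.00729), beside 6.32% of all genes. Hspb1, the most abundant of the list, was at 7282, 11236, 5507, 1855, 2289 and 4108 CPM and fell on the log2(hours + 1) scale (adjusted p = 0.00557), beside 2.32% of all genes. At 6 d, 6 of the 12 were 2-fold or more higher than at 0 h, beside 9.22% of all genes, and with TMM sizes 4 were, beside 5.52%. The Krt15 cells with Cd34 or Krt24 had Hspa1a at 291, 126, 145, 93.6, 484 and 1321 CPM, also highest at 6 d.

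Several genes of ribosome biogenesis stood higher at 4 h and 16 h, when 4 of 6 and 5 of 11 were 2-fold or more above 0 h, beside 14.5% and 12.2% of all genes. With TMM sizes 4 and 3 were, beside 8.27% and 6.72%. Of 14 tested 0 passed on hours by edgeR (0 at an unadjusted p under 0.05 and 0 by DESeq2), and Fbl (fibrillarin) passed on the log2(hours + 1) scale, at 54.9, 280, 135, 53.6, 70.6 and 82.0 CPM (adjusted p = 0.0331), with its highest level at 4 h. Ncl (nucleolin) was at 523, 1480.2, 684, 499, 358 and 408 CPM (adjusted p = 0.0851). Fbl, Ncl and Nhp2 passed in the remaining members on the log2 scale (adjusted p = 0.00358, 0.0143 and 0.0227). Of 19 genes listed for early responses of bulge keratinocytes, 5 were tested. Of these, Emp1 fell on the log2(hours + 1) scale, at 1362, 1572, 900.3, 659.7, 316 and 377 CPM (adjusted p = 0.0186), and with it Hbegf and Tnfrsf12a fell in the remaining members on the log2 scale (adjusted p = 0.0232 for Tnfrsf12a). Of 14 glycolysis genes 0 passed on either scale in all members by edgeR (2 at an unadjusted p under 0.05 and 0 by DESeq2), with Gapdh at 384, 503, 668, 581, 576 and 451 CPM. Eno1 rose (adjusted p = 0.015) and Hk2 and Slc2a1 passed with a falling trend (adjusted p = 0.00345 and 0.0131) in the remaining members on the log2 scale. All calls of these 3 lists stand beside 2.32% of all genes on the log2(hours + 1) scale in all members, and 6.32% in the remaining members.

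The cell death list was read because the study centres on MCL-1, which protects cells from apoptosis. Of 7 BCL-2 family genes tested, 0 passed on hours by edgeR (2 at an unadjusted p under 0.05 and 0 by DESeq2), and Bok, a relative of BAX and BAK, fell on the log2(hours + 1) scale, at 219.7, 480.1, 233, 61.9, 141 and 82.0 CPM (adjusted p = 0.0303), as did Bbc3 (PUMA) in the remaining members on the log2 scale (adjusted p = 0.0198). Mcl1 was at 387, 320.1, 308, 227, 195 and 249 CPM (adjusted p = 0.456), beside 369, 304, 209, 254, 183 and 164 CPM in the Krt15 cells with Cd34 or Krt24. Bax was at 70.3, 114, 146, 70.1, 155 and 115 CPM and Bak1 at 0, 0, 10.7, 8.25, 8.47 and 7.69 CPM. Of 10 p53 target genes 0 passed on either scale in all members by edgeR (0 at an unadjusted p under 0.05 and 0 by DESeq2), with Cdkn1a (p21) at 778, 537, 512, 449, 463 and 487 CPM, and Trp53inp1 passed in the remaining members on the log2 scale (adjusted p = 0.0421). Among all genes 2.32% passed on the log2(hours + 1) scale in all members. In the remaining members on the log2 scale 6.32% did.

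Of 14 integrin, laminin and collagen genes, Col17a1 alone passed in all members, on the log2(hours + 1) scale, and Itgb1 and Itgb4 fell with it in the remaining members on the log2 scale (adjusted p = 0.0142 and 0.00506). Of 8 suprabasal markers 0 passed on either scale in all members by edgeR (1 at an unadjusted p under 0.05 and 0 by DESeq2), nor of 6 interfollicular basal markers (3 at an unadjusted p under 0.05 and 0 by DESeq2) or of 7 relatives of the rule genes (0 at an unadjusted p under 0.05 and 0 by DESeq2), among them the tetraspanin Cd9 at 1433, 1869, 1475, 1183, 1171 and 998 CPM. Of the interfollicular basal markers, Krt14 rose (adjusted p = 0.0261) and Thbs1 and Itgb4 fell in the remaining members on the log2 scale (adjusted p = 0.000522 for Thbs1), and of the suprabasal markers Calml3 passed there (adjusted p = 0.0186). These calls stand beside 6.32% of all genes there, and that of Col17a1 in all members beside 2.32%. Sncb and the kinase Dclk2 had no UMI in the members.

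Each later time point was also set against 0 h by size, among genes with at least 50 UMIs in both sums together. Past 2-fold, 14.5% of 1633 genes were higher and 9.68% lower at 4 h. At 16 h, 12.2% of 3780 were higher and 5.0% lower. The shares were 5.09% and 9.62% of 1767 genes on day 2, 10.1% and 8.73% of 2187 on day 4, and 9.22% and 6.77% of 2245 on day 6. These comparisons share the 0 h sum, and the split depended on the scaling. On totals the counts were 237 higher and 158 lower at 4 h, 460 and 189 at 16 h, then 90 and 170, 221 and 191, and 207 and 152. With TMM library sizes they were 135 and 254, 254 and 306, 68 and 201, 119 and 309, and 124 and 221. The median log2 ratio of all genes moved from 0.13, 0.19, 0.07, 0.20 and 0.17 on totals to -0.17, -0.04, -0.05, -0.12 and -0.07 with TMM sizes, and fold changes here are to be read relative to that shift.

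**Figure D4:**
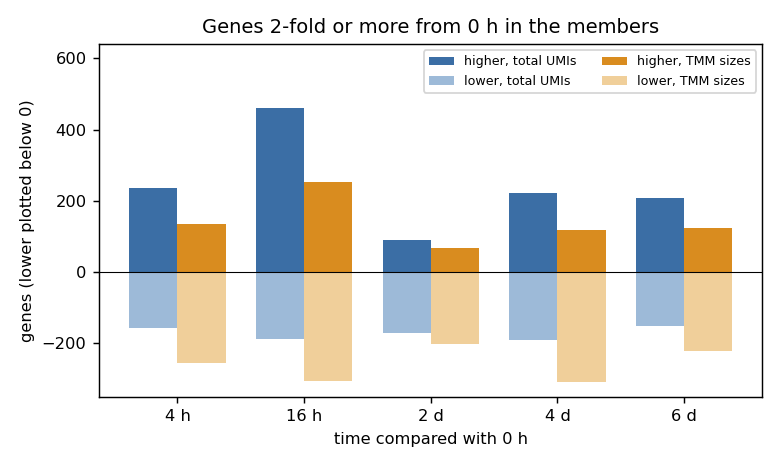
Number of genes (y axis) 2-fold or more higher (above 0) or lower (below 0) than at 0 h in the members at each later time point (x axis), with levels scaled by total UMIs or by TMM library sizes. On totals higher genes were in the majority at 4 time points, and with TMM sizes lower genes were in the majority at all 5.

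The largest rises by size were mostly in genes of other cell types. At 4 h they were Rgs1, Cd74, H2-Ab1, H2-Aa and Ctla2a, and at 16 h Cd74, H2-Ab1, H2-Aa, Defb6 and Krt79, genes of lymphocytes, antigen presenting cells and the upper follicle. The first 5 at 2 d were Cd74, Defb6, H2-Ab1, Krt79 and H2-Aa, at 4 d Krt79, Defb6, Cd74, Cst6 and H2-Ab1, and at 6 d Krt79, Defb6, Cd74, Klk7 and Klk10. Cd74 had 0, 164, 1146, 509, 166 and 135 UMIs in time order, and 53.4% of those in its highest library sat in 1 cell.

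The largest differences in the other direction were in other genes. At 4 h they were Spink5, a protease inhibitor, with 381 UMIs at 0 h and 2 at 4 h, Hspa1a, 12.7-fold lower, Mitf with 75 and 1 UMIs, Tgm5 with 72 and 2, and Irf1 with 71 and 3. At 16 h Fam71a was 14.5-fold lower, Irf1 7-fold and Spink5 7.02-fold lower, Ccn2 6.73-fold and Gadd45b 6.21-fold. At 2 d Ccn2 was 38.8-fold lower, Sparc 16.9-fold, Krt24 had 3 UMIs and Cck 3, and Grem1 had 1 beside 83 at 0 h. At 4 d Ccn2 was 20.6-fold lower, Krt24 14.5-fold, Hbegf 12.3-fold, Cck had 1 UMI and Lor 2 beside 82 at 0 h. At 6 d Ccn2 was 20.8-fold lower, Krt24 had 3 UMIs beside 186 at 0 h, Klf2 2 beside 74 and Igfbp3 2 beside 66. Igfbp3 at 0 h was at 145 CPM in all members but 64.6 CPM in the remaining members. Spink5 and Lor are genes of differentiating keratinocytes, and 33.6% of the Spink5 UMIs at 0 h sat in 1 cell.

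Cell cycle markers were then counted in single members. After thinning to 2000 UMIs, at least 2 UMIs of 10 cell cycle markers were found in 10.2% of members (4.78% to 18.5%) of the 0 h library, in 8.11% (1.70% to 21.9%) at 4 h and in 9.30% (5.41% to 14.7%) at 16 h. The shares were 6% on day 2 (1.25% to 16.5%), 9.46% on day 4 (3.89% to 18.5%, with 3 members too shallow) and 5.41% on day 6 (1.49% to 13.3%). All of these thinned intervals overlapped. In the remaining members the thinned shares were 10.5%, 3.85%, 8.75%, 5.26%, 8.33% and 4.84% in time order, with 1 of 26 cells at 4 h where all members had 3 of 37, and T cells of the 4 h library were at 33.2%. Unthinned, the shares were 25%, 13.5%, 34.9%, 18%, 26.0% and 14.9%, and the intervals at 16 h (27.8% to 42.5%) and 6 d (7.66% to 25.04%) did not overlap. The Krt15 cells with Cd34 or Krt24, thinned to 2000 UMIs, were at 9.48%, 2%, 8.33%, 15.6%, 20.9% (15.1% to 27.8%) and 10.2% in time order, to be read beside the thinned shares of the members. Mki67 was at 0, 0, 13.6, 24.7, 28.2 and 5.13 CPM, Top2a at 0, 0, 8.72, 70.1, 19.8 and 10.3 CPM and Hmgb2, which is not restricted to dividing cells, at 196, 85.7, 240.3, 264, 237 and 146 CPM. The G1 cyclin gene Ccnd1 was at 17.6, 223, 129.9, 20.6, 184 and 256 CPM and passed on the log2(hours + 1) scale (adjusted p = 0.0219). Of 5 S phase genes tested 0 passed on either scale in all members by edgeR (1 at an unadjusted p under 0.05 and 0 by DESeq2), with Pcna at 90.1, 103, 115, 53.6, 147 and 59.0 CPM, and Rrm2 rose in the remaining members on the log2 scale (adjusted p = 0.0261). The call of Ccnd1 stands beside 2.32% of all genes, and that of Rrm2 beside 6.32%.

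Finally, the course of each gene in the members was compared with its course in other bulge cells of the same libraries. The comparison cells were 6046 barcodes with 4 UMIs over Cd34, Krt24, Postn and Sfrp1, a mixed set since Postn also admits other basal cells. The interaction of cell set and time, with library as a block, passed 0.05 for 204 of 10533 genes (1.94%), 108 with a trend higher in the members and 96 lower. A second comparison, added after the data were seen, set the remaining members against 1158 Krt15 cells with Cd34 or Krt24, and passed for 93 of 7663 genes (1.21%). With the genes that chose those cells included it was 95, and 49 genes passed in both. The same library supplied both cell sets at each time point.

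Ptn, the growth factor pleiotrophin, differed in both comparisons. It was at 2516, 997, 1194, 1360, 679.5 and 456 CPM in time order in the remaining members and at 2038, 1012, 979.8, 1756, 1454 and 1774 CPM in time order in the Krt15 cells with Cd34 or Krt24. Its trend was lower in the members by a difference of -2.05 on the log2 scale (adjusted p = 1.45e-10) and of -2.18 in the second comparison (adjusted p = 7.37e-16), the levels having been alike at 4 h and apart from 4 d.

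Cxcl14 also differed in both comparisons, with 3013, 2664, 1260.4, 426, 474 and 446 CPM in the remaining members and 3599.5, 3947, 3381, 1519.5, 2409 and 2511 CPM in the Krt15 cells with Cd34 or Krt24, a difference in trend of -1.96 (adjusted p = 1.32e-06) and -2.01 (adjusted p = 1.76e-18). Both cell sets had less at 2 d than at 0 h, and at 4 d and 6 d the comparison cells had more than at 2 d while the members were near their 2 d level. Ramp1, a subunit of the receptor for the neuropeptide CGRP, was at 78, 58.2, 45.6, 57.1, 80.8 and 41.1 CPM in the remaining members and 31.0, 17.1, 12.3, 54.8, 80.3 and 81.6 CPM in those cells, with a trend lower in the members (difference -4.45, adjusted p = 1.01e-14, and -2.52, adjusted p = 0.00188). Tcim, a regulator of transcription, had a trend higher in the members in both (difference 3.74, adjusted p = 1.45e-10, and 4.23, adjusted p = 1.34e-10), at 15.6, 14.6, 28.0, 135, 73.5 and 158 CPM beside 114, 22.2, 52, 81.3, 31.0 and 44.9 CPM.

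**Figure D5:**
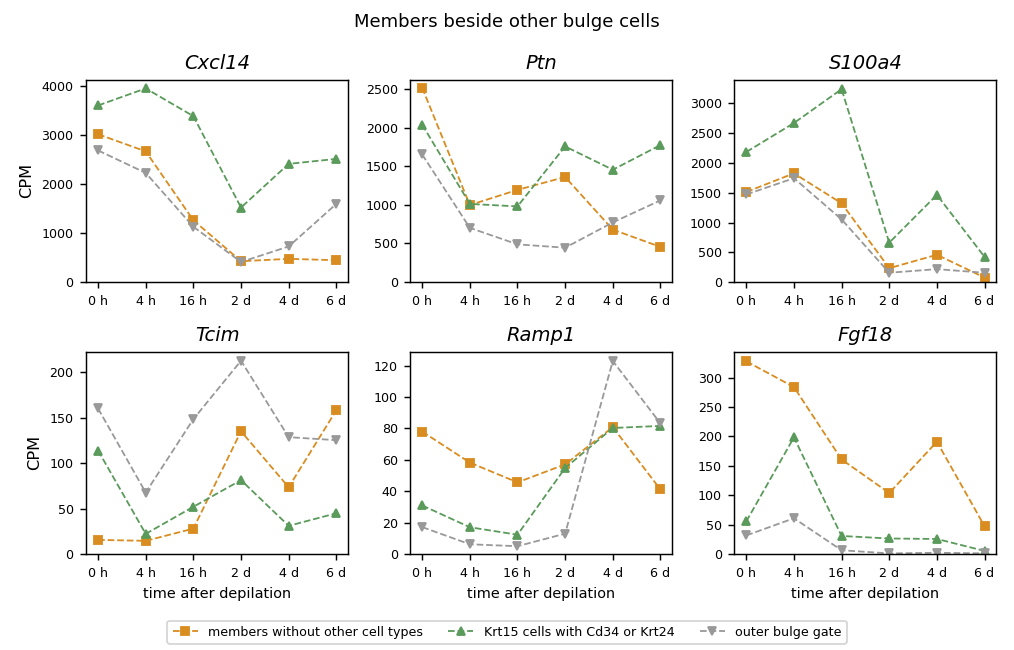
Level (CPM, y axis) of 6 genes by time after depilation (x axis) in the remaining members (squares), the Krt15 cells with Cd34 or Krt24 (upward triangles) and the outer bulge comparison cells (downward triangles). Ptn and Cxcl14 were lower in the members at 4 d and 6 d than in the Krt15 cells with Cd34 or Krt24, and Fgf18 was higher in the members at all 6 time points.

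Not every difference carried over to the second comparison. Fgf18 differed from the outer bulge comparison cells (difference in trend 2.57, adjusted p = 5.55e-09), which had 31.7, 60.9, 6.49, 1.15, 2.20 and 1.20 CPM, but did not pass against the Krt15 cells with Cd34 or Krt24 (adjusted p = 0.996). Cd207 (langerin, adjusted p = 3.35e-14) marks Langerhans cells, and Cst6 (adjusted p = 1.45e-09, difference 0.69) the upper follicle. Cd207 had 0, 0, 3.11, 10.4, 0 and 12.7 CPM in the remaining members, where its difference did not pass, and the sign of the Cst6 difference turned there. Both genes were among those that chose the members left out, so these changes followed in part from that choice.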

How the data were processed

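The authors aligned and counted reads of 10x Genomics Chromium 3′ libraries with Cell Ranger 6.1.2 on mm10, and deposited its filtered matrices of raw UMI counts per gene and barcode, with no normalization (32285 genes). Whether intronic reads were counted is not given in the sources used here. Symbols used more than once (38) were not summed. The deposited counts were summed over the members of each library (1 library per time point) and tested in edgeR 4.0.16 (R 4.3.3, TMM, filterByExpr, robust quasi-likelihood F test, natural cubic spline in hours of 3 degrees of freedom), with Benjamini-Hochberg adjustment over all genes tested. DESeq2 1.42.0 was an alternative. The linear trend is the fitted log2 difference across the course. The test steps were checked on simulated data. Doublets were scored with Scrublet in scanpy 1.11.5, marking 0.8% per 1000 barcodes, and were kept except in an alternative. The study's own cluster labels were not used here.

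The members, the gene lists and the tests were chosen with earlier results of these data known. Named genes were the rule genes and label markers, the 15 leading genes, 2 to 4 per list by level or range, the 5 largest rises and falls at each time point, and those with the smallest p (10 over the time course, 5 for the interaction). Other genes named, among them those passing in all 4 fits or called in the remaining members alone, were chosen after their values were seen. A few genes are not reported here.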

Additional observations from a re-analysis of the deposited data

Results flagged for a closer look

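The 5 genes named for the smallest p-values of the interaction had a time course in the members that differed from that in the outer bulge comparison cells by a test of the difference itself. These were Ramp1 (edgeR adjusted p = 1.01e-14), Cd207 (adjusted p = 3.35e-14), Ptn (adjusted p = 1.45e-10), Tcim (adjusted p = 1.45e-10) and Cst6 (adjusted p = 1.45e-09). Ramp1, Ptn and Tcim also differed from the Krt15 cells with Cd34 or Krt24 without members of other cell types (adjusted p = 0.00188, 7.37e-16 and 1.34e-10). Cd207 and Cst6 moved with the Langerhans cells and upper follicle cells among the members, at 0, 91.4, 74.6, 396, 39.5 and 33.3 CPM and 185, 74.3, 1335, 5117, 6649.6 and 3631 CPM in time order beside 0, 0, 3.11, 10.4, 0 and 12.7 CPM and 187, 87.3, 164, 239, 147 and 231 CPM without those cells. Both genes were among those that chose the cells left out, so the lower levels without those cells followed in part from that choice. At 4 d, 1 cell held 75.2% of the Cst6 UMIs of the members.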

How the results depend on the processing

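No paired analysis was possible because each time point has 1 library and the labels pair none. For the time course (60 genes), the count was 129 on the log2(hours + 1) scale, 93 on ranks, 37 with a linear trend alone, 201 with no filter on low counts, 15 without the robust option, 39 with predicted doublets removed, 39 at 3 UMIs and 4 per 10000, 32 by the DESeq2 likelihood ratio test, 15 without members of other cell types and 287 so on the log2(hours + 1) scale. Leaving out 1 library gave 4 (16 h) to 190 (0 h) genes, with 6 without 6 d and 22 without 4 d, so the count rested on single libraries. For the interaction (204 genes), it was 111 on the log2(hours + 1) scale, 75 on ranks, 27 with a linear trend alone, 134 with DESeq2 size factors, 80 without the robust option, 107 with doublets removed, 48 against the Krt15 cells with Cd34 or Krt24, 93 so without members of other cell types, and 84 (without 6 d) to 314 (without 4 h) leaving out 1 library, with 114 without 2 d and 92 without 4 d. Cck and Krt24 kept their call in all 19 alternatives, and Fgf18 lost it in 12 of 19. The log2 ratio of the share at 4 d to 0 h (-1.03) was -0.0847 at 3 UMIs and 4 per 10000, -2.28 at 6 UMIs and 10 per 10000 and -1.70 thinned to 4000 UMIs. The Fgf18 ratio (-2.98) was -1.50 at 6 UMIs. The cycling share at 4 d (9.46%) was 21.4% at 6 UMIs and 10 per 10000, 37.8% with 1 marker UMI, 1.35% with 4 and 26.0% unthinned. With at least 100 UMIs, 169, 328, 116, 180 and 167 genes were past 2-fold in time order in place of 395, 649, 260, 412 and 359. The direction turned for Cxcl2 without 6 d (adjusted p over libraries left out 4.86e-07 to 0.0295), for Igfbp5 at 3 UMIs (0.0977) and without 0 h or 4 h (3.07e-06 to 0.0399 over libraries left out), for Cd207 on the log2(hours + 1) scale (1.69e-08), on ranks (6.18e-09), without 6 d (1.23e-17 to 0.00328 over libraries left out) and without members of other cell types (0.860, and 0.891 on the log2 scale), and for Cst6 without those members (9.13e-17, and 9.19e-16 on the log2 scale) and against the Krt15 cells with Cd34 or Krt24 (0.00262). The causes of these turns were not tested, and Cd207 and Cst6 were among the genes that chose the members left out. Sums of 174971 to 1031934 UMIs limit what low genes can show, most at 4 h.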

Other observations

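Some calls of the time course fell outside the gene lists, and are named after their values were seen. None of the 4 passed on hours without members of other cell types (adjusted p = 0.0799 for Chat, 0.0503 for Il31ra, 0.0571 for S100a4 and 0.0878 for Samd5), and all but S100a4 passed there on the log2(hours + 1) scale (adjusted p = 0.000115, 9.61e-05 and 6.22e-06, beside 0.138 for S100a4). Chat, which makes acetylcholine, fell (adjusted p = 0.00782) and was at 138, 57.1, 44.6, 61.9, 16.9 and 2.56 CPM in time order, beside 83.8, 34.2, 45.2, 42.4, 39.6 and 16.3 CPM in the Krt15 cells with Cd34 or Krt24. Il31ra, a receptor subunit for interleukin 31, fell as well (adjusted p = 0.00359), at 90.1, 28.6, 25.2, 4.12, 2.82 and 2.56 CPM. S100a4 fell in the members (adjusted p = 0.00289), at 1540.4, 2183, 1361, 656, 499.6 and 82.0 CPM, and its course differed from both comparison sets (adjusted p = 1.83e-08 and 2.62e-08). Samd5 rose (adjusted p = 0.0108), at 48.3, 22.9, 21.3, 136, 265 and 126 CPM.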
